A study of Rattus norvegicus with 6 samples.

Results

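The IL-6 family genes described here are 9 genes of gp130 signalling, taken by gene name from a table of read counts for 25689 genes in sensory neurons of spontaneously hypertensive rats (SHRs), isolated from the dorsal root ganglia (DRGs) at L1-L2. The genes fall into 3 roles, namely 4 ligands (Il6, Lif, Il11 and Clcf1), 3 receptor chains (Il6st, Il6r and Osmr) and the STAT3-SOCS3 arm (Stat3 and Socs3). RNA was sequenced in 3 samples from SHRs whose perirenal adipose tissue had been removed surgically on either side (PRATA) and in 3 from sham-operated SHRs, with wild type genotype and an age of 6 to 8 weeks on the labels of both groups. Ganglia were collected 4 weeks after the operation, digested with collagenase and trypsin, and kept for several hours in a dish from which slowly adhering neurons were flushed off faster adhering glia, so that every sample of either group carries dissociation and a short culture. All 9 genes passed the filter on low counts, which left 14919 genes tested.

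Cytokines of the IL-6 family signal through gp130, the receptor chain encoded by Il6st. IL-6 and IL-11 first bind an α chain of their own, IL-6R in the case of IL-6, while LIF pairs gp130 with LIFR, oncostatin M pairs it with OSMR, and CLCF1 acts through CNTFR, LIFR and gp130. Kinases bound to gp130 then phosphorylate STAT3, whose target SOCS3 binds gp130 and shuts the signal down. In sensory ganglia, LIF and IL-6 are best known from nerve injury, where they act on neurons to alter neuropeptides and promote axon growth.

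Of the 9 genes, 7 had a promoter window of 250 bases in the set of RefSeq promoters used here (rat assembly GRCr8). Lif and Clcf1 had no window in that set and were not searched. Both strands were searched for a STAT site (TTCNNNGAA), the NF-kB motif, AP-1 (TGANTCA), CRE (TGACGTCA) and C/EBP (TTGCNNAA), and the windows of Il6 and Il11 are printed because Il11 was lower after PRATA at an unadjusted p and Il6 did not pass the test. Il6 lies on the minus strand with its window at chr4:5894576-5894825, and Il11 on the plus strand with its window at chr1:78098372-78098621. Capitals mark the matches.
Il6: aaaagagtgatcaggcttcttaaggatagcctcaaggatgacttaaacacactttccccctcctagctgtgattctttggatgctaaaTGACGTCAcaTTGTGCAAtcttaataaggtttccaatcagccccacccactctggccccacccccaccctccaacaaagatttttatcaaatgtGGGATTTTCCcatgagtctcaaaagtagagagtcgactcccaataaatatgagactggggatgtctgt
Il11: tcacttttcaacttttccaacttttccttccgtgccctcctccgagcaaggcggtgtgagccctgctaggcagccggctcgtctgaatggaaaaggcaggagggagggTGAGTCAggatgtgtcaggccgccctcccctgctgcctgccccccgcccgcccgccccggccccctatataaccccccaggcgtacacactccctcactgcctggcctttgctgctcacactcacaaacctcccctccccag
The Il6 window held a CRE at 162 to 155 bases before the start, a C/EBP match on the opposite strand at 152 to 145 bases, and an NF-kB match at 68 to 59 bases. The Il11 window held an AP-1 match at 142 to 136 bases before the start, and the window of Osmr held another at 33 to 27 bases. The windows of Il6st, Il6r, Stat3 and Socs3 held 0 matches, and those of Il6st and Socs3 lie within the annotated span of the gene. Over 33469 promoter windows of this length, 7.67% held the STAT letters, 1.3% NF-kB, 6.34% AP-1, 1.59% CRE and 9.22% C/EBP. The STAT letters stood in none of the 7 windows, which are too few to be set against a share of 7.67%. Since the windows of Il6st and Socs3 lie within the gene, the sequence before those genes was not searched.

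Of the 4 ligands, 3 were called lower after PRATA, and the feedback inhibitor Socs3 was called higher. At an unadjusted p under 0.05 by edgeR's quasi-likelihood test, 4 of the 9 were lower after PRATA (Lif, Il11, Clcf1 and Il6st), where 10.1% of all genes tested were called lower, and 1 was higher (Socs3), where 8.19% were called higher and 18.3% in either direction. The other 4 (Il6, Il6r, Osmr and Stat3) did not pass. With a log2 fold change beyond 1 in size as well, 3 genes were lower (Lif, Il11 and Clcf1), beside 3.23% of all genes, and Socs3 was higher, beside 1.17% (4.4% in either direction). At an adjusted p under 0.05, edgeR called 0 of the 9 and 0 (0%) of all genes tested, although 2734 genes passed at an unadjusted p. Its smallest adjusted p was 0.156. In contrast, DESeq2 called 234 genes higher and 510 lower at an adjusted p under 0.05, with Socs3 among the former and Lif and Clcf1 among the latter, and limma-trend called 0. The groups of 2 genes did not overlap with PRATA lower (Lif and Il11), beside 11.2% of all genes, and those of 1 did not overlap with PRATA higher (Socs3), beside 11.6% (22.8% in either direction). The median log2 fold change was −1.50 over the ligands, −0.34 over the receptor chains and 0.46 over the STAT3-SOCS3 arm, against 0.02 over all genes tested.

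Counts were scaled for library size with TMM factors (CPM), and levels are comparable between samples but not between genes, since they are not divided by gene length. Sham replicate 2 was the shallowest library with 5892967 counts in total and sham replicate 1 the deepest with 15226952, so that 3 counts correspond to 0.197 to 0.509 CPM. PRATA replicate 3 and sham replicate 1 stood apart from the other 4 libraries in the share of reads on the 7SL RNA gene Rn7sl1, which was 5.4% and 5.63% in this pair and 1.25% to 1.52% in the others. The pair holds 1 sample of each group, and calls of the 9 genes and counts of the lists that change without it are given without it as well.

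**Figure D1:**
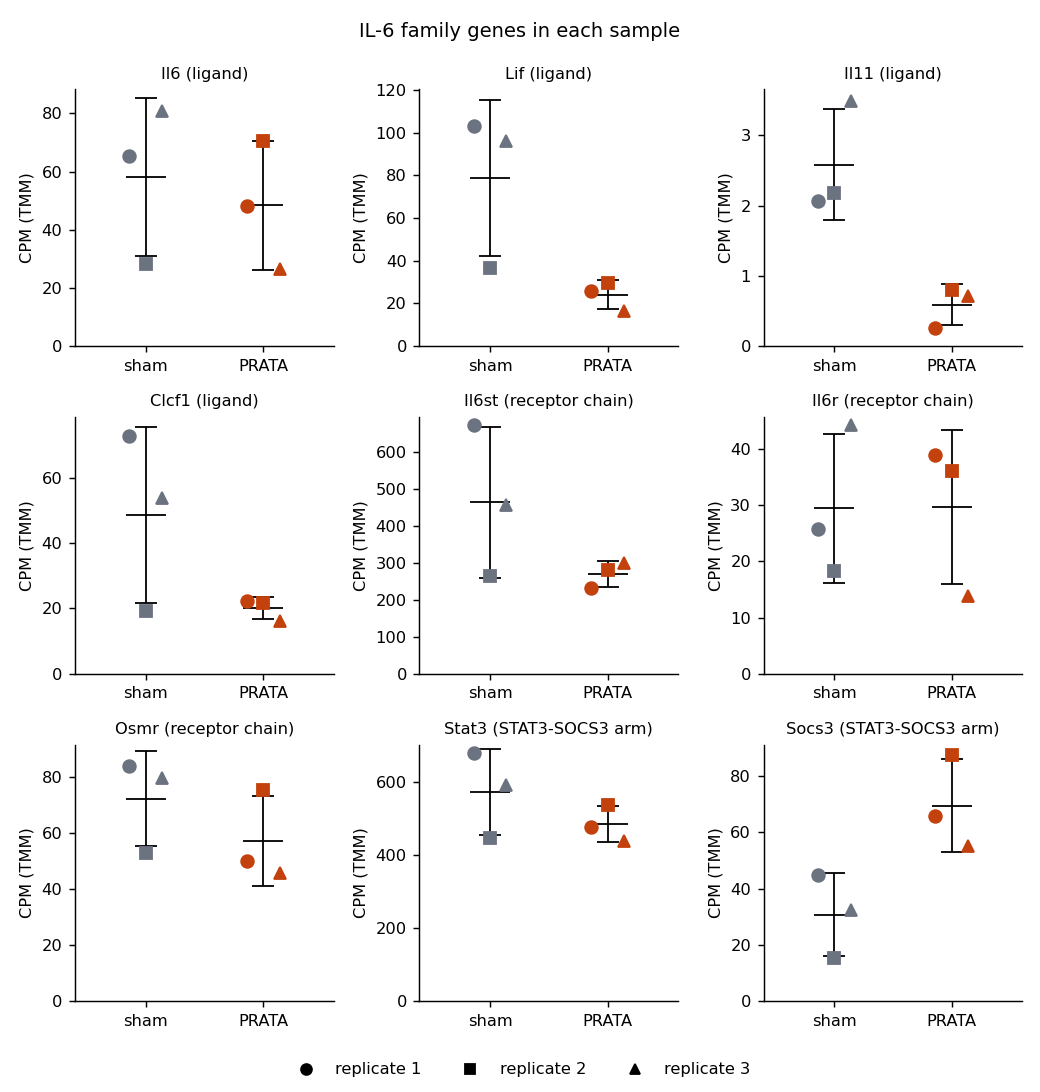
TMM-normalized CPM of the 9 genes in each sample, with replicates 1 to 3 as circles, squares and triangles, and the group mean with its SD (n = 3) as a bar with whiskers. Lif and Il11 lie lower and Socs3 lies higher in each PRATA sample than in any sham sample, while sham replicate 2 lies near the PRATA samples for Lif, Clcf1 and Il6st.

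Among the ligands, Lif (ENSRNOG00000007002), which encodes leukemia inhibitory factor, measured 25.9, 29.6 and 16.4 CPM in PRATA replicates 1, 2 and 3 and 103.3, 36.5 and 96.2 CPM in sham replicates 1, 2 and 3. All PRATA samples lay under all sham samples, although sham replicate 2 lay far closer to the PRATA samples than to the other sham samples. The group means were 23.96 ± 6.82 CPM after PRATA and 78.7 ± 36.7 CPM after the sham operation (SD, n = 3). The difference was 3.29-fold (log2 fold change −1.72, SE 0.40, 95% interval −2.64 to −0.80, unadjusted p = 0.00255). Its adjusted p was 0.156 by edgeR after Benjamini-Hochberg correction, 0.00143 by DESeq2 and 0.172 by limma-trend. By edgeR it was 0.0268 without sham replicate 2, and 0.227 to 0.550 with any other sample left out. Without the pair of libraries with more 7SL RNA, the log2 fold change was −1.28 for Lif (unadjusted p = 0.0168). Of all genes tested, 1.13% had a lower log2 fold change than Lif.

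Il11 (ENSRNOG00000017386), a cytokine of stromal cells that signals through gp130, was the member with the fewest reads. It was represented by 2, 10 and 9 counts in the PRATA samples and by 30, 14 and 37 counts in the sham samples, or 0.258, 0.797 and 0.712 CPM against 2.07, 2.18 and 3.50 CPM. The groups did not overlap, and the 2 counts in PRATA replicate 1 are under the floor of 3 counts. The means were 0.589 ± 0.290 CPM and 2.58 ± 0.791 CPM (SD, n = 3). The level was 4.18-fold lower after PRATA (log2 fold change −2.06, SE 0.53, 95% interval −3.27 to −0.85, unadjusted p = 0.00433), with an adjusted p of 0.168 by edgeR after Benjamini-Hochberg correction. Without the pair with more 7SL RNA, the log2 fold change of Il11 was −2.34 (unadjusted p = 0.0148). Under a filter of at least 10 counts in every sample, Il11 was not tested.

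Clcf1 (ENSRNOG00000018752), which encodes cardiotrophin-like cytokine factor 1, measured 22.3, 21.6 and 16.3 CPM in the PRATA samples against 72.8, 19.4 and 53.9 CPM in the sham samples. Sham replicate 2 lay among the PRATA samples, while sham replicates 1 and 3 lay well above them. The fitted level was 2.44-fold lower after PRATA (log2 fold change −1.29, SE 0.42, 95% interval −2.26 to −0.31, unadjusted p = 0.0157), with an adjusted p of 0.197 by edgeR after Benjamini-Hochberg correction. The call at an unadjusted p was lost without sham replicate 1 (log2 fold change −0.90, unadjusted p = 0.0619) and without PRATA replicate 3 (log2 fold change −1.16, unadjusted p = 0.0520), the pair with more 7SL RNA, and without both (log2 fold change −0.77, unadjusted p = 0.119). Without sham replicate 2 the log2 fold change was −1.66, with an adjusted p of 0.0278 by edgeR. With any other sample left out, that adjusted p was 0.308 to 0.550. In the RefSeq annotation Clcf1 overlaps Rad9a, which encodes a DNA damage checkpoint protein and whose own log2 fold change was −0.43 (unadjusted p = 0.193). Whether the reads were counted by strand is not given in the sources used here.

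Il6 (ENSRNOG00000010278), the ligand that names the family, did not pass the test, and whether it differed from the other ligands was not tested. It measured 48.1, 70.5 and 26.4 CPM in the PRATA samples against 65.4, 28.1 and 80.9 CPM in the sham samples, so that each group ranged over more than the distance between the means of 48.4 ± 22.05 CPM and 58.1 ± 27.2 CPM (SD, n = 3). The log2 fold change was −0.27 (SE 0.44, 95% interval −1.28 to 0.74, unadjusted p = 0.557). The interval holds differences in either direction, and without the pair of libraries with more 7SL RNA the log2 fold change was 0.10.

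Among the receptor chains, Il6st (ENSRNOG00000013963), which encodes gp130 itself, measured 231, 279 and 298 CPM in the PRATA samples against 672, 263 and 456 CPM in the sham samples. The PRATA samples lay close together, and sham replicate 2 lay between them. The mean was 269 ± 34.9 CPM after PRATA and 463 ± 204 CPM after the sham operation (SD, n = 3). The fitted level was 1.72-fold lower after PRATA (log2 fold change −0.78, SE 0.33, 95% interval −1.54 to −0.03, unadjusted p = 0.0440), with an adjusted p of 0.261 by edgeR after Benjamini-Hochberg correction. The call at an unadjusted p was lost when any sample other than sham replicate 2 was left out, with unadjusted p-values of 0.0668 to 0.156, of which the highest came without sham replicate 1 (log2 fold change −0.44), and without the pair with more 7SL RNA (log2 fold change −0.51, unadjusted p = 0.160). Without sham replicate 2 the log2 fold change was −1.06, with an adjusted p of 0.0499 by edgeR. With any other sample left out, that adjusted p was 0.376 to 0.591.

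Il6r (ENSRNOG00000020811), the α chain that binds IL-6, measured 39.0, 36.1 and 13.8 CPM in the PRATA samples against 25.8, 18.3 and 44.2 CPM in the sham samples. The groups overlapped over most of their range, and the log2 fold change was 0.00 (SE 0.43, unadjusted p = 0.997), with a 95% interval of −1 to 1. Osmr (ENSRNOG00000033192), the chain that joins gp130 for oncostatin M, measured 50.2, 75.5 and 45.6 CPM against 84.1, 52.9 and 79.8 CPM. PRATA replicate 2 and sham replicate 2 each lay among the samples of the opposite group, and the log2 fold change of Osmr was −0.34 (SE 0.26, 95% interval −0.93 to 0.25, unadjusted p = 0.222). In the same annotation Il6st overlaps the locus LOC134485838, which was not analysed here, and Il6r overlaps the adaptor gene She, whose log2 fold change was −0.11 (unadjusted p = 0.802).

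In the STAT3-SOCS3 arm, Stat3 (ENSRNOG00000019742), the transcription factor that gp130 activates, measured 477, 536 and 438 CPM in the PRATA samples against 678, 445 and 590 CPM in the sham samples. The groups overlapped, and the log2 fold change was −0.24 (SE 0.22, 95% interval −0.75 to 0.27, unadjusted p = 0.314). Socs3 (ENSRNOG00000002946), the feedback inhibitor, measured 66.0, 87.6 and 55.1 CPM in the PRATA samples against 44.8, 15.3 and 32.3 CPM in the sham samples. All PRATA samples lay above all sham samples, with means of 69.6 ± 16.6 CPM and 30.8 ± 14.8 CPM (SD, n = 3). The level was 2.25-fold higher after PRATA (log2 fold change 1.17, SE 0.37, 95% interval 0.32 to 2.01, unadjusted p = 0.0127), with an adjusted p of 0.187 by edgeR after Benjamini-Hochberg correction. Of all genes tested, 98.9% had a lower log2 fold change. Without the pair of libraries with more 7SL RNA, the log2 fold change of Socs3 was 1.67 (unadjusted p = 0.00206), and without sham replicate 2 it was 0.85 (unadjusted p = 0.0123). With each sample left out in turn, the calls of Lif, Il11 and Socs3 at an unadjusted p stood. For Lif, Il11 and Socs3 the exact permutation test gave p = 0.10, the smallest it can give with 3 samples against 3. For Clcf1 and Il6st, which edgeR also called at an unadjusted p, the permutation test gave p = 0.3.

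**Figure D2:**
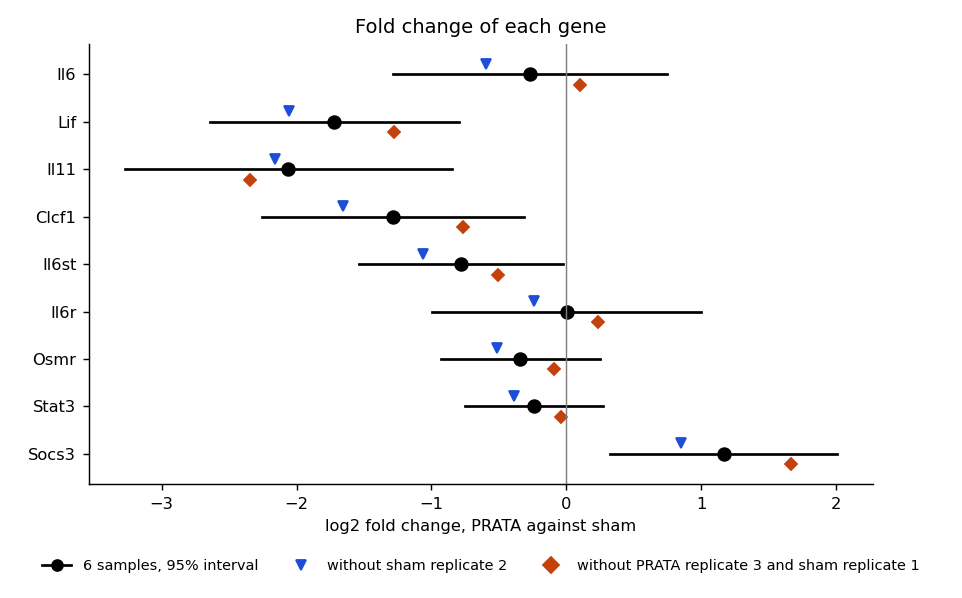
Log2 fold change of each gene, PRATA against sham, on the horizontal axis, with the edgeR estimate over 6 samples and its 95% interval in black, the estimate without sham replicate 2 as blue triangles and the estimate without PRATA replicate 3 and sham replicate 1 as orange diamonds. The intervals of Lif, Il11, Clcf1, Il6st and Socs3 lie on 1 side of 0, and without sham replicate 2 Lif moves from −1.72 to −2.06 and Il6st from −0.78 to −1.06.

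Ratios of counts of a gene pair within a library need no scaling between libraries, and they are given as a description, since the pairs were chosen after the values were seen. Per 100 counts of Stat3 there were 13.8, 16.4 and 12.6 counts of Socs3 in the PRATA samples and 6.60, 3.44 and 5.48 in the sham samples. Against gp130, the chain that SOCS3 binds, there were 28.6, 31.4 and 18.5 counts of Socs3 per 100 of Il6st after PRATA and 6.67, 5.81 and 7.09 after the sham operation. The 3 sham libraries lay close together in the latter ratio, sham replicate 2 included.

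Among the ligands, Lif stood at 53.9, 41.9 and 61.98 counts per 100 of Il6 in the PRATA libraries and at 158, 130 and 119 in the sham libraries. Sham replicate 2, which was the lowest sham library in either ligand, lay between the other 2 sham libraries in their ratio. For Clcf1 the ratio to Il6 was 46.4, 30.6 and 61.7 against 111, 68.9 and 66.6, where the PRATA replicate 3 value comes close to the sham values. The ratio of Il6r to Il6st overlapped between the groups, at 16.9, 12.9 and 4.64 per 100 against 3.85, 6.94 and 9.70.

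**Figure D3:**
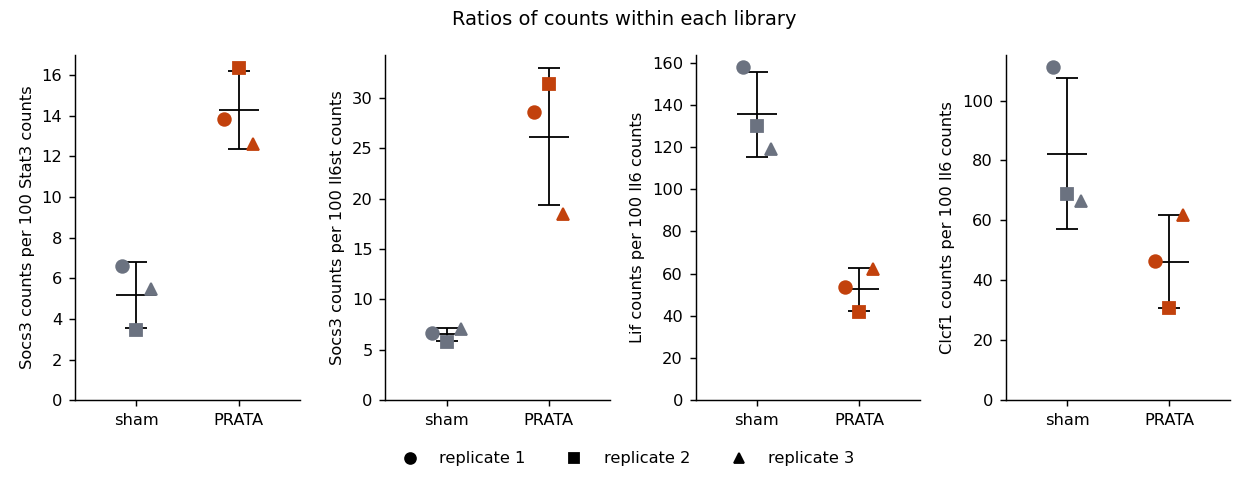
Counts of the first gene per 100 counts of the second in each library, with replicates 1 to 3 as circles, squares and triangles, and the group mean with its SD (n = 3) as a bar with whiskers. The PRATA libraries lie between 12.6 and 16.4 Socs3 per 100 Stat3 and the sham libraries between 3.44 and 6.60, while Lif per 100 Il6 lies between 41.9 and 61.98 after PRATA and between 119 and 158 after the sham operation.

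The rest of the pathway was read from 9 lists with 110 genes, of which 105 were in the table and 95 were tested. At an unadjusted p under 0.05, 18 of the 95 were higher after PRATA and 12 lower, beside 8.19% and 10.1% of all genes tested, and the median log2 fold change over the 95 was 0.09. With a log2 fold change beyond 1 in size, 10 were higher and 4 lower, beside 1.17% and 3.23%. The groups of 12 genes did not overlap with PRATA higher and those of 5 with PRATA lower, beside 11.6% and 11.2% of all genes.

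Of the other ligand genes, 5 of 9 were tested, with a median log2 fold change of −0.12. Osm, which encodes oncostatin M, had a log2 fold change of −0.69 (unadjusted p = 0.353) at group means of 0.626 and 1.09 CPM.

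Of the other receptor chains, 4 of 5 were tested, and 1 was higher and 0 were lower, beside 8.19% and 10.1% of all genes tested. That chain was Lifr, which pairs with gp130 to receive LIF and CLCF1, at 706, 684 and 805 CPM in the PRATA samples against 510, 596 and 463 CPM in the sham samples. The groups did not overlap (log2 fold change 0.48, SE 0.20, unadjusted p = 0.0415), which held with PRATA higher for 11.6% of all genes. The Lifr call was lost when any sample other than sham replicate 2 was left out (unadjusted p = 0.0628 to 0.127) and without the pair with more 7SL RNA (log2 fold change 0.39, unadjusted p = 0.184). Cntfr, the α chain for CLCF1 and CNTF, had a log2 fold change of 0.29 (unadjusted p = 0.183), and Il31ra, the chain that joins OSMR to receive IL-31, one of 0.21 (unadjusted p = 0.284).

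All 13 genes of receptor shedding and signal relay were tested, and 1 was higher and 1 was lower, beside 8.19% and 10.1% of all genes tested. Tyk2, a kinase of the JAK family, was higher at means of 14.7 and 9.80 CPM (log2 fold change 0.59, SE 0.22, unadjusted p = 0.0290). Its groups did not overlap, which held with PRATA higher for 11.6% of all genes. Adam17, the protease that releases soluble IL-6 receptor, was lower at 55.1, 61.6 and 49.4 CPM against 110.5, 59.2 and 137.6 CPM (log2 fold change −0.89, SE 0.29, unadjusted p = 0.0157), with sham replicate 2 again among the PRATA samples. Without the pair with more 7SL RNA, neither was called, with log2 fold changes of 0.49 for Tyk2 (unadjusted p = 0.112) and −0.77 for Adam17 (unadjusted p = 0.0784). The Tyk2 call was also lost without PRATA replicate 1, PRATA replicate 2 or sham replicate 1 (unadjusted p = 0.0793 to 0.0965), and the Adam17 call without PRATA replicate 3 (unadjusted p = 0.0526) or sham replicate 3 (unadjusted p = 0.0745), while without sham replicate 2 the list held 2 higher and 3 lower genes. The adaptor gene Gab2 had a log2 fold change of −0.61 (unadjusted p = 0.0620). Of the other STAT genes, 5 of 6 were tested and 2 were higher, namely Stat2 (log2 fold change 0.68, SE 0.20, unadjusted p = 0.00877), which carries interferon signals, and Stat5b (log2 fold change 0.58, SE 0.17, unadjusted p = 0.00750), which carries growth hormone signals. The groups of both did not overlap, although Stat2 was not called without PRATA replicate 1 (unadjusted p = 0.0569), nor Stat5b without the pair with more 7SL RNA (unadjusted p = 0.0516).

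The negative regulators of JAK-STAT signalling split. Of 14 genes other than Socs3, 3 were higher and 3 were lower, beside 8.19% and 10.1% of all genes tested, and 8 did not pass. Cish, a feedback inhibitor of STAT5, was higher at 23.6, 20.2 and 18.7 CPM against 8.71, 12.5 and 5.67 CPM (log2 fold change 1.23, SE 0.29, unadjusted p = 0.00303). Its groups did not overlap, which held with PRATA higher for 11.6% of all genes. Socs2, which restrains growth hormone signalling, and Pias3, an inhibitor of STAT3, were the other higher genes, with log2 fold changes of 0.75 and 0.56. In the other direction, Socs5 measured 161, 172 and 185 CPM in the PRATA samples against 474, 194 and 382 CPM in the sham samples (log2 fold change −1.02, SE 0.31, unadjusted p = 0.0112). Socs6, a relative of Socs5, was lower too (log2 fold change −0.55, SE 0.21, unadjusted p = 0.0311), as was Socs4, with a log2 fold change of −0.59. Cish and Socs5 kept their calls with each sample left out in turn and without the pair with more 7SL RNA. The number of lower genes fell from 3 to 1 when any sample other than sham replicate 2 was left out, and that of higher genes to 1 without PRATA replicate 2 or sham replicate 3. Without the pair with more 7SL RNA, 2 were higher and 1 was lower.

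Of 22 genes known to be induced through STAT3, 19 were tested, with a median log2 fold change of −0.07. Of these, 2 were higher and 2 were lower, beside 8.19% and 10.1% of all genes tested, and 15 did not pass. The higher genes were Fos, an immediate early gene, at 379, 474 and 297 CPM against 217, 96.3 and 77.6 CPM (log2 fold change 1.56, SE 0.40, unadjusted p = 0.00429), and Irf1, an interferon response factor, at 102, 116 and 41.4 CPM against 41.2, 19.0 and 23.4 CPM (log2 fold change 1.62, SE 0.42, unadjusted p = 0.00498). For Irf1, PRATA replicate 3 and the highest sham sample all but met. Both genes are also induced by signals other than STAT3. The lower genes were Myc, a growth regulator, with a log2 fold change of −0.80 (SE 0.32, unadjusted p = 0.0362), and the protease inhibitor gene A2m, with one of −0.58 (unadjusted p = 0.0490). The list held 0 lower genes without PRATA replicate 1, PRATA replicate 3, sham replicate 1 or sham replicate 3 and 5 without sham replicate 2. Without the pair with more 7SL RNA, 5 genes were higher and 0 were lower, with log2 fold changes of 2.29 for Fos and 2.34 for Irf1.

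The list with the highest median was that of sensory neuron genes known to respond to gp130 cytokines or to axon injury, with a median log2 fold change of 1.18. There 7 of 11 genes tested were higher and 0 were lower, beside 8.19% and 10.1% of all genes tested. Adcyap1, which encodes the neuropeptide PACAP, measured 119, 115 and 86.8 CPM in the PRATA samples against 40.6, 67.0 and 33.8 CPM in the sham samples (log2 fold change 1.18, SE 0.27, unadjusted p = 0.00245). Sox11, a transcription factor of axon growth, was higher as well (log2 fold change 1.496, SE 0.22, unadjusted p = 0.000129), at 27.9 ± 6.18 CPM against 9.88 ± 0.853 CPM. The groups of both genes did not overlap, which held with PRATA higher for 11.6% of all genes.

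Reg3b, a secreted protein of injured neurons, was higher at 4.13 against 2.05 CPM (log2 fold change 1.03, SE 0.42, unadjusted p = 0.0407). Its groups did not overlap, which held with PRATA higher for 11.6% of all genes. Over the alternative fits its log2 fold change was 0.751 to 1.3, and the unadjusted p of the fit's own test reached 0.169. Atf3, the transcription factor most used as a marker of injured neurons, was higher at 278, 327 and 108 CPM against 125, 82.7 and 56.5 CPM (log2 fold change 1.43, SE 0.44, unadjusted p = 0.0110), with PRATA replicate 3 among the sham samples. The neuropeptide gene Vip had the largest log2 fold change of the list, at 3.56 (SE 1.19, unadjusted p = 0.0167), yet it was at 20 CPM in PRATA replicate 2 and at 2.45 CPM or less in every other sample. Gal and Npy, neuropeptide genes of injured sensory neurons, were also highest in PRATA replicate 2, at 70.8 and 33.9 CPM, and did not pass (unadjusted p = 0.0512 and 0.0584). Without PRATA replicate 2, and likewise without sham replicate 3, 3 genes of the list were higher in place of 7, and without the pair of libraries with more 7SL RNA 9 were. The summed level of sensory neuron markers differed between the samples as well, as described with the cell type markers, and its part in the count was not tested.

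**Figure D4:**
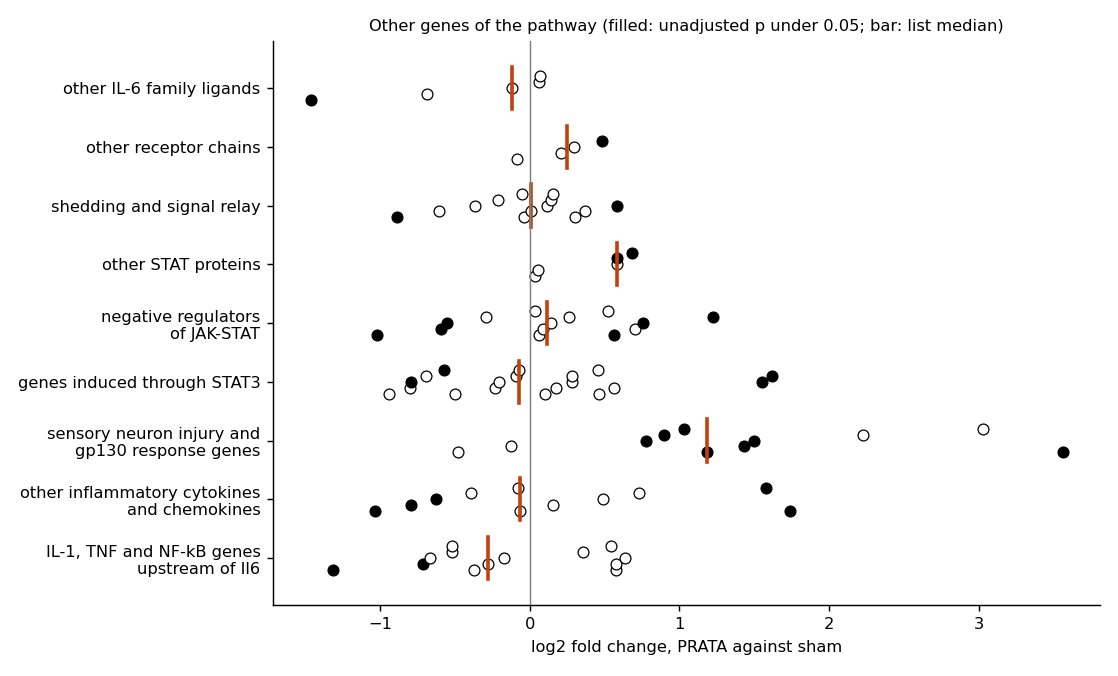
Log2 fold change of each tested gene of the 9 pathway lists, PRATA against sham, on the horizontal axis, with 1 row per list, filled points for an unadjusted p under 0.05 and an orange bar at the list median. The median of the sensory neuron injury and gp130 response genes is 1.18, while the medians of the other 8 lists lie between −0.28 and 0.58.

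Other inflammatory cytokines and chemokines showed 2 higher and 3 lower genes of 11 tested, beside 8.19% and 10.1% of all genes tested. Csf1, the growth factor of macrophages that injured sensory neurons also make, was lower at 125, 148 and 102 CPM in the PRATA samples against 239, 211 and 202 CPM in the sham samples (log2 fold change −0.80, SE 0.19, unadjusted p = 0.00301), and in this gene sham replicate 2 lay with the other sham samples. Il33, an alarmin, was lower at 19.9, 26.8 and 14.1 CPM against 38.4, 28.1 and 57.8 CPM (log2 fold change −1.04, SE 0.32, unadjusted p = 0.0120). Neither gene's groups overlapped, which held with PRATA lower for 11.2% of all genes. The chemokine gene Ccl7 was the other lower gene (log2 fold change −0.63, unadjusted p = 0.0301).

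In the opposite direction, Cxcl10, an interferon-induced chemokine, was higher with a log2 fold change of 1.74 (SE 0.64, unadjusted p = 0.0259), at 273, 200 and 30.8 CPM against 60.5, 45.4 and 44.9 CPM, so that PRATA replicate 3 lay under all sham samples. Il1a, an IL-1 cytokine, had a log2 fold change of 1.58 (SE 0.58, unadjusted p = 0.0257). The higher count moved with single libraries, since the list held 0 higher genes without PRATA replicate 2, sham replicate 2 or sham replicate 3, 1 without PRATA replicate 1, 3 without PRATA replicate 3 or sham replicate 1, and 4 without the pair with more 7SL RNA. Its lower genes numbered 1 without sham replicate 3, where Il33 was not called (unadjusted p = 0.0570).

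Among 13 genes listed for IL-1, TNF and NF-kB signalling, 2 were lower and 0 were higher, beside 10.1% and 8.19% of all genes tested. The lower genes were Il1rap, the shared chain of the IL-1 and IL-33 receptors (log2 fold change −1.32, SE 0.39, unadjusted p = 0.00974), and Ptgs2, the inducible cyclooxygenase (log2 fold change −0.72, SE 0.31, unadjusted p = 0.0463). Here too the count moved with the libraries, with 5 lower genes without sham replicate 2 and 1 without PRATA replicate 1, PRATA replicate 3, sham replicate 1 or sham replicate 3. Without the pair with more 7SL RNA the direction turned, with 5 higher and 0 lower genes, and without sham replicate 1 alone 5 were higher and 1 was lower.

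The samples were checked for the cells they hold, since in bulk RNA a smaller share of the cells that make a cytokine and less RNA per cell cannot be told apart. All 22 sensory neuron markers were present, led by Nefm and Nefl, and their summed level was 22660, 15700 and 23700 CPM in the PRATA samples against 11350, 17040 and 13920 CPM in the sham samples. Sham replicate 2, whose Lif, Clcf1 and Il6st lay near the PRATA samples, had the highest neuron marker sum of the sham group, within the PRATA range. At an unadjusted p under 0.05, 6 of the 22 neuron markers were higher and 1 was lower, beside 8.19% and 10.1% of all genes tested. The lower marker was Ntrk2 (log2 fold change −1.04, SE 0.30, unadjusted p = 0.00894), with groups that did not overlap, which held with PRATA lower for 11.2% of all genes. The other 21 had a log2 fold change above 0.

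Satellite glial markers, led by Apoe and Glul, summed to 3583, 5698 and 3042 CPM in the PRATA samples against 6859, 3987 and 7954 CPM in the sham samples, and 0 of them passed the test in either direction by edgeR. Sham replicate 2 was again the sham sample nearest to PRATA. Schwann cell markers, led by Pmp22, summed to 1252, 2104 and 1106 CPM against 1679, 1221 and 1441 CPM. The sums overlapped. Of the 11 Schwann cell markers 2 were higher, the myelin genes Prx and Ncmap, and 1 was lower, beside 8.19% and 10.1% of all genes tested. The lower gene was Sox10, a transcription factor of Schwann and satellite glial cells. It measured 59.9, 88.4 and 42.0 CPM against 213.8, 109.4 and 267.4 CPM (log2 fold change −1.63, SE 0.38, unadjusted p = 0.00240). Its groups did not overlap, which held with PRATA lower for 11.2% of all genes. Fibroblast markers, led by Col1a1 and Fn1, summed to 514, 1056 and 2618 CPM against 2622, 1425 and 1578 CPM, with the 2 highest sums in the pair of libraries with more 7SL RNA. Of 9 fibroblast markers tested, 1 was lower and 0 were higher, a count near the 10.1% of all genes called lower. The lower marker was Postn, a matrix protein gene, at 1.42, 1.51 and 2.85 CPM against 5.87, 4.68 and 9.45 CPM (log2 fold change −1.78, SE 0.42, unadjusted p = 0.00279). Its groups did not overlap. Of the 9 markers, 8 had a log2 fold change below 0 and 1 above.

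Summed markers of blood-borne and vascular cells overlapped between the groups. Macrophage markers, led by Cd74 and Cd14, summed to 50.6, 208 and 179 CPM in the PRATA samples against 162, 83.0 and 68.4 CPM in the sham samples. Neutrophil markers, led by S100a9 and Mmp8, summed to 0.258 to 9.81 CPM against 0.283 to 11.7 CPM, and T cell markers, led by Cd4 and Lck, to 5.03 to 8.76 CPM against 3.21 to 6.71 CPM. Of the T cell list, Cd3d, Cd3e and Cd3g had at most 3 counts in any sample and were not tested. Endothelial markers, led by Cdh5 and Flt1, lay between 74.0 and 154 CPM against 30.4 and 181 CPM, and mural cell markers, led by Myh11 and Pdgfrb, between 175 and 236 CPM against 117 and 273 CPM. Of 9 endothelial markers tested, 1 was higher, beside 8.19% of all genes, namely Vwf (log2 fold change 1.47, SE 0.57, unadjusted p = 0.0324). Its groups overlapped. In the macrophage, neutrophil, T cell and mural lists 0 genes passed.

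**Figure D5:**
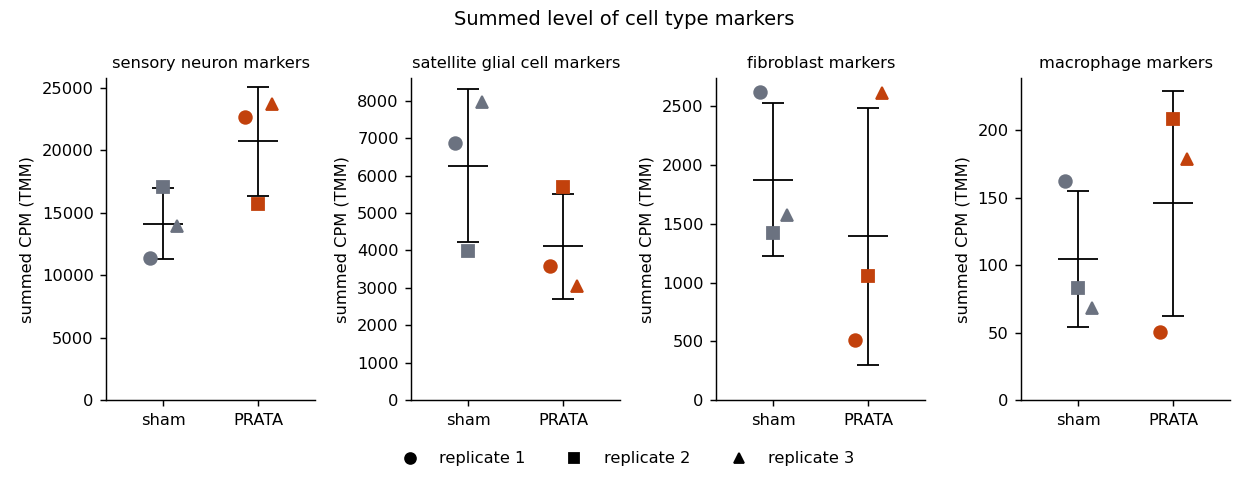
Summed TMM-normalized CPM of the markers of 4 cell types in each sample, with replicates 1 to 3 as circles, squares and triangles, and the group mean with its SD (n = 3) as a bar with whiskers. Sham replicate 2 has 17040 CPM of sensory neuron markers, within the PRATA range of 15700 to 23700, and 3987 CPM of satellite glial markers.

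In fits added after seeing the data, in which each library was scaled by its sensory neuron markers, the lower calls stood, with log2 fold changes of −2.23 for Lif (unadjusted p = 0.00444), −2.52 for Il11 (unadjusted p = 0.00254), −1.83 for Clcf1 (unadjusted p = 0.0132) and −1.32 for Il6st (unadjusted p = 0.0205). Socs3, by contrast, had a log2 fold change of 0.66 on this scale and was no longer called (unadjusted p = 0.236). When the libraries were scaled by their fibroblast markers, the reverse held, with Socs3 at 2.02 (unadjusted p = 0.00250) and none of the 4 lower genes called, at −0.84 for Lif (unadjusted p = 0.195), −1.64 for Il11 (unadjusted p = 0.0623), −0.39 for Clcf1 (unadjusted p = 0.545) and −0.03 for Il6st (unadjusted p = 0.967). Scaling by markers that are higher after PRATA lowers the log2 fold changes of all genes, and scaling by markers that are lower raises them. The group difference in mean log2 level was 0.47 for the sensory neuron markers and −0.61 for the fibroblast markers. With the fibroblast scale the SE widened too, from 0.40 to 0.65 for Lif, 0.53 to 0.88 for Il11 and 0.33 to 0.69 for Il6st. The loss and gain of calls are therefore not read as particular to these genes. What part the shift and the wider SE had in them was not tested. On either scale the 4 genes lay below 0 and Socs3 above 0, although the −0.03 of Il6st had an SE of 0.69. The part of these cells in the differences between the groups was not tested.

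Across the 6 samples, the genes whose level followed 3 of the members most closely were sought among 10818 protein-coding genes, as a description in which the points share library, group and depth. For Il6 these were Cebpg, a C/EBP family factor, with r = 0.995, H6pd, an enzyme of the endoplasmic reticulum, with r = 0.990, and Ints6, a subunit of the Integrator complex, with r = 0.988. Cebpg measured 71.1, 81.3 and 58.4 CPM in the PRATA samples against 81.2, 58.8 and 83.2 CPM in the sham samples, the same order of samples as Il6 with PRATA replicate 2 and sham replicates 1 and 3 high. For Osmr they were Col28a1, a collagen gene, with r = 0.997, Adgrl3, an adhesion receptor, with r = 0.995, and Fads1, a fatty acid desaturase, with r = 0.993. For Socs3 they were Rgl2, a Ral exchange factor, with r = 0.994, Zmiz2, a PIAS-like coregulator, with r = 0.990, and Gadd45g, a stress response gene, with r = 0.988. Gadd45g measured 86.7, 90.7 and 65.2 CPM against 53.0, 26.5 and 45.1 CPM, with sham replicate 2 lowest, as for Socs3.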

How the data were processed

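RNA of L1-L2 DRG neurons of SHRs was sequenced in 3 PRATA and 3 sham samples, and the deposited table gives the authors' raw counts of reads per gene, without normalization. The methods describe mapping with HISAT2 and FPKM values from StringTie and Cuffdiff, which are not in the table, while the submitters' processing notes name STAR 2.7.3a, RSEM and DESeq2 without a role. The tool that counted, the strand setting, the build and the annotation are not given in the sources used here. The labels give an age of 6 to 8 weeks, whereas the methods give an older age at purchase. Whether each library holds the ganglia of 1 rat is not stated, so that p-values measure only the spread between these samples, which may be technical.

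The fits were run in edgeR 4.0.16 under R 4.3.3. Genes passing filterByExpr (minimum count 10, minimum total 15; 14919 of 25689) were scaled by TMM (factors 0.953 to 1.10) and compared by the two-sided quasi-likelihood test without covariates, and p-values were corrected after Benjamini and Hochberg over all of these genes. Single genes were also compared by the exact two-sided permutation test on log2(CPM + 1). Floors of 3 counts cover counting error only. Alternatives used DESeq2 1.42.0, limma 3.58.1 (limma-trend, and voom with sample quality weights), other scalings and filters, the replicate block, protein-coding genes alone, each sample left out, and the 4 samples outside the pair with more 7SL RNA. Scaling by marker levels was added after seeing the data. Figures used Python 3.11.15 and matplotlib 3.10.9. Promoters came from RefSeq (GRCr8). 3 samples per group are too few to flag an outlying sample by a test.

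The 9 genes and all lists were chosen with earlier results of these data known. Named are every one of the 9 genes in every sample, of each pathway list up to 3 tested genes with the smallest p and any past an unadjusted p under 0.05 with a log2 fold change over 1 in size, the 3 protein-coding genes with a mean over 5 CPM that follow Il6, Osmr and Socs3 most closely by Pearson's r, and the highest 2 of each marker list. Gal, Npy, Socs2, Socs4, Pias3, A2m, Ccl7, Sox10, Prx, Ncmap, Postn and genes overlapping a member were named after their values were seen. So were Ntrk2, Vwf, Cd3d, Cd3e and Cd3g. A few of the genes so chosen are not reported here.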

Additional observations from a re-analysis of the deposited data

How the results depend on the processing

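Lif, Il11, Clcf1 and Il6st stayed lower and Socs3 higher in direction under all alternatives run, although Il6st was at −0.03 with scaling by fibroblast markers. The calls of these genes at an adjusted p under 0.05 moved with the tool and with sham replicate 2. DESeq2 called Lif (−1.74 on the log2 scale), Clcf1 (−1.30) and Socs3 (1.15), that is 1 of the 9 genes higher and 2 lower, beside 234 genes higher and 510 lower over the whole table. DESeq2 gave no adjusted p for Il11. Voom with sample quality weights called Lif (−1.82), Il11 (−2.46) and Socs3 (1.09), again 1 higher and 2 lower, beside 447 and 726 genes over the table, and at an unadjusted p it called 2324 and 2282 genes, with 340 higher beyond a log2 fold change of 1. Limma-trend gave 84 higher and 253 lower genes at the latter thresholds, and no filter on low counts gave 1159 lower. With at least 10 counts in every sample, 1 of the 9 genes lay lower without overlap, because Il11 was not tested there. Il6r, whose log2 fold change is nearest to 0, changed sign without a filter (−0.00718), with the stricter filter (−0.0063), with scaling by library size (−0.0155) or by the factors of DESeq2 (−0.0227), and with DESeq2 (−0.0190), limma-trend (−0.0290), voom (−0.20) and protein-coding genes alone (−0.0255).

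With the 4 samples outside the pair with more 7SL RNA, Il6 was at 0.10, 2 of the 9 genes were lower at an unadjusted p, and of all genes 9 were higher and 4 lower at an adjusted p, 421 were higher at an unadjusted p with a log2 fold change beyond 1, and 3439 and 3237 did not overlap in either direction. In the fits added after seeing the data, scaling by fibroblast markers put Il6 at 0.58, Osmr at 0.43 and Stat3 at 0.55, and scaling by sensory neuron markers put Il6r at −0.46. The cause of these moves was not tested.

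With each sample left out in turn, the log2 fold change ranged from −0.65 to 0.048 for Il6, −2.06 to −1.50 for Lif, −2.32 to −1.78 for Il11, −1.66 to −0.90 for Clcf1, −1.06 to −0.44 for Il6st, −0.26 to 0.42 for Il6r, −0.59 to −0.20 for Osmr, −0.39 to −0.12 for Stat3 and 0.85 to 1.52 for Socs3. Over the table, 0 to 162 genes were higher and 0 to 559 lower at an adjusted p, 548 to 2073 and 858 to 2181 at an unadjusted p, 101 to 361 and 383 to 673 with a log2 fold change beyond 1 as well, and 2126 to 3642 and 2013 to 3419 did not overlap. Of the 9 genes, 0 to 3 were lower at an adjusted p, 2 to 4 at an unadjusted p, 0 to 1 were higher and 2 to 4 lower with a log2 fold change beyond 1, and 2 to 6 lay lower without overlap. The highest counts at an adjusted p all came without sham replicate 2, which left Lif, Clcf1 and Il6st called by edgeR. Among the other genes named by rule, Ebi3, a cytokine subunit, had a log2 fold change of −0.12 and ranged from −0.37 to 0.19, above 0 without PRATA replicate 1 (0.17) and without sham replicate 1 (0.19).

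The labels number the replicates of either group alike without saying that equal numbers belong together. Same-numbered samples did not deviate together, with correlations of −0.388, −0.105 and −0.357, so the numbers were not taken as pairs. With the replicate block, 621 genes were higher and 907 lower at an unadjusted p, and the log2 fold changes were −0.26 for Il6, −1.64 for Lif, −2.15 for Il11, −1.12 for Clcf1, −0.69 for Il6st, 0.00 for Il6r, −0.35 for Osmr, −0.22 for Stat3 and 1.25 for Socs3. Il6st lost its call at an unadjusted p under the block (unadjusted p = 0.110) and with limma-trend (unadjusted p = 0.0642), and the other 4 called genes kept theirs under both. The block also ended the unadjusted calls of Lifr (unadjusted p = 0.136), Tyk2 (unadjusted p = 0.0650), Socs6 (unadjusted p = 0.0877), Myc (unadjusted p = 0.0832), Il1a (unadjusted p = 0.0696), Cxcl10 (unadjusted p = 0.0619) and Ptgs2 (unadjusted p = 0.0874). Depth limits Il11 most, with 2 to 10 counts in the PRATA samples.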
